A study of Mus musculus with 21 samples.

Results

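The writers and erasers of DNA methylation were followed through 21 RNA-seq libraries of mouse embryoid bodies: Dnmt1, Uhrf1, Dnmt3a, Dnmt3b, Dnmt3l, Tet1, Tet2 and Tet3. The 8 genes were taken by symbol from 48321 symbols in the count tables, and all 8 passed the filter on low counts, which 14311 genes passed. All lines derive from the A2loxCre mouse embryonic stem cell line, which carries 1 site for integrating a doxycycline-inducible construct and whose strain is labelled C57BL/6. Each library came from embryoid bodies, floating aggregates of differentiating stem cells, at day 3 of differentiation, and 3 libraries were made per group. The study asked how the dimer partner changes what TWIST1, a basic helix-loop-helix transcription factor, does to gene expression in these cells.

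The parental group was A2loxCre with no construct, given doxycycline. The monomer line carried a single TWIST1 coding sequence and was sampled without doxycycline (uninduced monomer) and with it (monomer). The homodimer line carried TWIST1 joined to TWIST1, and 3 further lines carried TWIST1 joined to an E-protein, the class of partners TWIST1 binds: TCF3, TCF4 or TCF12. Protein was induced for 16 h before collection in every group given a construct and doxycycline. Between the parental group and the uninduced monomer, line and doxycycline differ together and cannot be told apart. Each construct was represented by 1 line, so a difference between lines and an effect of the construct cannot be told apart, and the labels do not say whether the 3 samples of a group were separate cultures. The p-values therefore measure only the spread between these samples.

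DNA methylation in mammals is the addition of a methyl group to cytosine, mostly at CpG dinucleotides. DNMT1, brought to replicating DNA by UHRF1, copies existing methylation onto the new strand, whereas DNMT3A and DNMT3B methylate unmodified sites, helped by DNMT3L, a relative with no catalytic activity of its own. TET1, TET2 and TET3 oxidise the methyl mark, which starts its removal. Cells leaving the naive pluripotent state for the state of the epiblast normally gain methylation and raise DNMT3B, while visceral and parietal endoderm keep a less methylated genome.

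On the GRCm38 build the members lie on 7 chromosomes, all protein-coding in GENCODE M21. Dnmt3b spans chr2:153649450-153687730 on the plus strand with 24 exon blocks, Dnmt3l chr10:78041947-78063622 on the plus strand with 18, and Tet2 chr3:133463679-133545139 on the minus strand with 14. Exons of other annotated genes overlap the members little: the antisense gene Aire covers 67 bases of Dnmt3l exons and had 1 to 21 counts per library. The near-copy Dnmt3c-ps had 0 to 3 counts. The promoters of the 3 genes that varied most between groups are shown because TWIST1 dimers bind the E-box, CANNTG, whose capitals mark each match on either strand (the motif reads CANNTG on both). Sequences are from the RefSeq promoter table of GRCm38.p6, restricted to bases upstream of an annotated start that lie in no annotated exon: chr2:153649199-153649410 (plus strand) for Dnmt3b, chr10:78042136-78042286 and chr10:78049592-78049841 (plus strand) for the first and the second start of Dnmt3l, and chr3:133544391-133544640 (minus strand) for Tet2.
Dnmt3b: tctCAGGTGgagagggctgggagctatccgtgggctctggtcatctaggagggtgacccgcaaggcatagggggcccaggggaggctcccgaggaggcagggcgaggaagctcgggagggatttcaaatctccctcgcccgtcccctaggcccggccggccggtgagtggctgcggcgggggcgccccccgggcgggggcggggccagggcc
Dnmt3l, first start: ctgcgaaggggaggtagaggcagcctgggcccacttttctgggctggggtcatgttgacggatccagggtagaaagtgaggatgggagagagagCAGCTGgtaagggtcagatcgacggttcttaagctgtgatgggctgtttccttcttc
Dnmt3l, second start: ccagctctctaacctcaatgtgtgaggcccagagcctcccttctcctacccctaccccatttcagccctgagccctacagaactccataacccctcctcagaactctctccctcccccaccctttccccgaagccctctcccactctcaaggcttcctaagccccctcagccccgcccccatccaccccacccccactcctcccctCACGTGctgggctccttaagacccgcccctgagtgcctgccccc
Tet2: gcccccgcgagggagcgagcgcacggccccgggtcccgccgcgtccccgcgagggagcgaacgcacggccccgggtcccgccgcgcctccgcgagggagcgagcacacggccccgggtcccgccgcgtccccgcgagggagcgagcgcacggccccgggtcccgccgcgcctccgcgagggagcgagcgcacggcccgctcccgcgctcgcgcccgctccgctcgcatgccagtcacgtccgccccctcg
The Dnmt3b and Dnmt3l stretches each held 1 E-box and the Tet2 stretch none. The full window of 250 bases before the first Dnmt3l start held 3, and that before the other Dnmt3l start, not shown, held none. In Dnmt3b the E-box read CAGGTG. At the first start of Dnmt3l it read CAGCTG. At the second start it read CACGTG. These are common letters: 66.2% of 32851 RefSeq windows of 250 bases upstream of a start held at least 1 CANNTG, and 12.2% held at least 3. The Dnmt3b stretch of 212 bases and the first Dnmt3l stretch of 151 are shorter than those windows. The Tet2 stretch differed from most in its CpG content, with 51 CpG against a median of 6, a count that 0.067% of windows reached. A match describes the letters in a window and says nothing of binding.

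Depth ran from 6648842 to 15999693 counts per library, and levels are given as CPM, the library's counts scaled to a common size with edgeR's TMM factors, on which 3 counts stood at 0.188 to 0.451. Twist1 was at 4.39 to 5.65 CPM in the uninduced monomer, at 7.37 to 8.94 in parental libraries, at 585 to 647 in the monomer, at 166 to 199 in the homodimer and at 36.1 to 56.6 in the 3 E-protein lines. Tcf4 was at 305 to 349 CPM in the TCF4 line against at most 58.2 elsewhere, while Tcf3 read 151 to 159 CPM in the libraries labelled TCF3 dimer and 162 to 173 in the parental line, so counts of the endogenous symbol do not check that label. For Tcf12 the TCF12 dimer libraries read 53.2, 118 and 108 CPM, beside 91.3 to 120 for the TCF3 dimer libraries, which checks that label no better. TCF12 dimer sample 1 stood apart: its deviation from its group fell with transcript length (Spearman rho of -0.58 over 13880 genes), where its 2 mates gave 0.50 and 0.54 and the other 18 libraries -0.26 to 0.28. Deviations are taken among the 3 libraries of a group, so the values of the mates are not independent of sample 1. All members but Dnmt3l were lower in it than in both mates, by 0.25 to 1.70 on the log2 scale, with gaps of -1.70 in Tet1, -1.58 in Tet2 and -1.28 in Tet3, whose exons total 15.457 to 16.870 kb, but -0.28 in Dnmt3a at 16.642 kb, and -0.86 in Dnmt3b at 5.106 kb. Results are therefore given from all 21 libraries and, beside them, from the 20 without it; leaving it out lowered the biological coefficient of variation from 0.12 to 0.0539.

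To compare levels between genes, CPM was divided by the merged length of all annotated exons of a gene. Which transcripts were expressed was not determined, so such comparisons between genes, and the ratios below, are approximate. On this scale Dnmt3b was the most abundant member in all 7 groups. In the parental line it stood at 522 ± 9.36 CPM per kb (SD, n = 3), followed by Uhrf1 at 90.1 ± 2.68, Dnmt1 at 46.9 ± 2.32, Dnmt3l at 21.1 ± 0.33 and Dnmt3a at 18.1 ± 0.98. The erasers were lower, with Tet1 at 11.3 ± 1.77, Tet3 at 1.50 ± 0.17 and Tet2 at 0.33 ± 0.10. The order depends on the division: in CPM alone Dnmt3a lay above Dnmt3l in the parental line, at means of 302 and 63.1. Between groups the maintenance genes hardly moved, while Dnmt3l, Tet2 and Dnmt3b had ratios of highest to lowest group mean of 3.14, 2.93 and 2.53 (3.68, 2.67 and 2.53 without TCF12 dimer sample 1). The same ratio was 2.06 for Tet1 and 1.60 for Tet3 (1.59 and 1.74 without that library), 1.15 for both Dnmt1 and Uhrf1 and 1.25 for Dnmt3a.

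**Figure D1:**
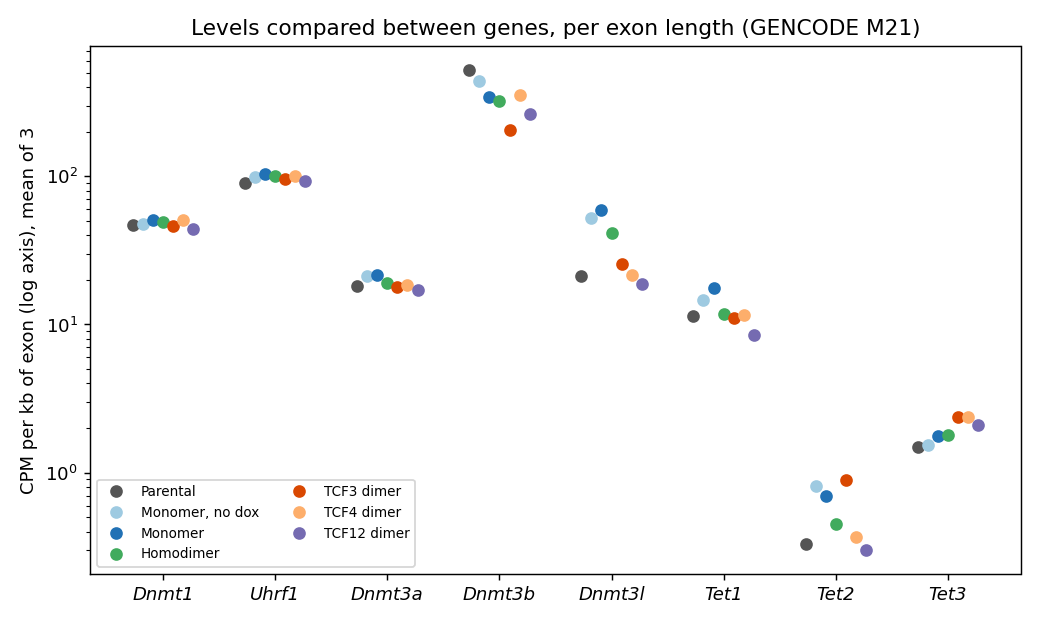
Mean CPM per kb of exon (log axis, 3 libraries per point) for the 8 genes in the 7 groups. Dnmt3b lies at the top in all groups (522 in the parental line) and Tet2 at the bottom (0.33 in the parental line), and the points of Dnmt1 and Uhrf1 form tight clusters.

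The maintenance pair showed the smallest spread. Dnmt1, the maintenance methyltransferase, was at 327, 359 and 352 CPM in parental libraries, 356, 344 and 361 in the uninduced monomer, 387, 360 and 371 in the monomer, 376, 348 and 366 in the homodimer, 331, 340 and 352 in the TCF3 line, 378, 374 and 370 in the TCF4 line and 230, 359 and 386 in the TCF12 line. Each group overlapped its neighbours in the order of means, and the single low value was TCF12 dimer sample 1. In no comparison with the parental line did Dnmt1 pass the edgeR quasi-likelihood test with Benjamini-Hochberg adjustment, over 21 or over 20 libraries, and the 21-library log2 differences ran from -0.09 to 0.11 with 95% intervals reaching -0.34 and 0.36. Uhrf1, the reader that recruits DNMT1, was lowest in the parental line at 380, 374 and 396 CPM and highest in the monomer at 453, 439 and 429. These 2 groups did not overlap. Uhrf1 rose in the monomer by 0.20 on the log2 scale (SE 0.07, edgeR adjusted p = 0.048), a call that held in 6 of 28 alternative analyses of this value. Without TCF12 dimer sample 1 it was called against the parental line in 4 of the 6 groups, at log2 0.12 in the uninduced monomer, 0.19 in the monomer and 0.15 in both the homodimer and the TCF4 line. The per-kilobase ratio of Dnmt1 to Uhrf1 stayed between 0.46 and 0.55 in the 20 other libraries and was 0.38 in TCF12 dimer sample 1.

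Dnmt3b, the de novo enzyme of the epiblast, was highest in the parental line and fell in every induced line. Parental libraries had 2683, 2612 and 2702 CPM and uninduced monomer libraries 2229, 2199 and 2345. The induced monomer had 1865, 1648 and 1698 CPM and the homodimer 1690, 1621 and 1658. Of the E-protein lines, TCF4 had 1866, 1847 and 1738 CPM, TCF12 had 860, 1465 and 1676, and TCF3 had 981, 1139 and 1041. The parental libraries lay above all 18 others, the uninduced monomer above all induced libraries, and the TCF3 line below every library except TCF12 dimer sample 1. Against the parental line the log2 change was -1.34 in the TCF3 line (SE 0.15, edgeR adjusted p = 1.5e-06), a level of 0.40 times the parental one. It was -0.69 in the homodimer (SE 0.15, adjusted p = 0.0046), -0.62 in the monomer (SE 0.15, adjusted p = 0.005) and -0.55 in the TCF4 line (SE 0.15, adjusted p = 0.017). In the TCF12 line it was -0.999 (adjusted p = 6.1e-05), and -0.77 without sample 1 (adjusted p = 8.4e-12), which moved the value but not its direction. The uninduced monomer, which differs from the parental group in both line and doxycycline, stood at -0.24 against it (SE 0.15, edgeR adjusted p = 0.3). This difference did not pass the test over 21 libraries and passed it over 20 (-0.25, edgeR adjusted p = 0.00033). The TCF4 call was lost when library size alone scaled the counts (-0.54, adjusted p = 0.055), without parental sample 3 (-0.54, adjusted p = 0.051), without TCF4 sample 3 (-0.52, adjusted p = 0.068) and against the uninduced monomer in place of the parental line (-0.31, adjusted p = 0.12). The TCF12 call was lost when only those 2 groups were fitted (adjusted p = 0.068).

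Dnmt3a, the other de novo enzyme, rose in the monomer line and passed no test against the parental line elsewhere. It was at 317, 284 and 304 CPM in parental libraries, at 364, 361 and 343 in the uninduced monomer and at 381, 350 and 343 in the monomer. The monomer line lay above the parental one with and without doxycycline, with no overlap. It rose by 0.24 on the log2 scale without doxycycline (SE 0.08, edgeR adjusted p = 0.031) and by 0.25 with it (SE 0.08, adjusted p = 0.026). Both calls were lost when library size alone scaled the counts (0.16 and 0.20, adjusted p = 0.3 and 0.19), with no filter on low counts (0.23 and 0.24, adjusted p = 0.16 and 0.12) and without parental sample 2 (0.19 and 0.20, adjusted p = 0.16 and 0.14). The homodimer and the 3 E-protein lines had 250 to 333 CPM and overlapped the parental line, with log2 differences of -0.07 to 0.08, none of which passed. The per-kilobase ratio of Dnmt3b to Dnmt3a was 27.6 to 30.0 in the parental libraries, 15.4 to 16.2 in the monomer and 11.1 to 12.6 in the TCF3 line.

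Dnmt3l, the cofactor without catalytic activity, separated the lines in another way. Its libraries read 63.8, 63.5 and 62.0 CPM in parental libraries, 156, 163 and 147 in the uninduced monomer, 174, 188 and 167 in the monomer and 111, 140 and 122 in the homodimer. The TCF3 line had 62.7, 87.8 and 78.6 CPM, the TCF4 line 58.0, 65.3 and 70.0 and the TCF12 line 72.4, 46.8 and 48.9. The monomer line, with or without doxycycline, and the homodimer lay above all parental and E-protein libraries. The TCF3 and TCF4 lines overlapped the parental one. The TCF12 line did so only through sample 1, and its other libraries, at 46.8 and 48.9 CPM, lay below all parental libraries. Against the parental line Dnmt3l rose by 1.30 in the uninduced monomer (SE 0.14, edgeR adjusted p = 2e-06), by 1.48 in the monomer (SE 0.14, adjusted p = 3.3e-07) and by 0.98 in the homodimer (SE 0.14, adjusted p = 1e-04). The first 2 are 2.46 and 2.79 times the parental level. The E-protein lines differed from it by 0.28, 0.03 and -0.17 in the order TCF3, TCF4, TCF12, with adjusted p of 0.17, 0.94 and 0.37. Without TCF12 dimer sample 1 the TCF3 value was 0.26 (adjusted p = 0.017) and the TCF12 value was -0.40 (adjusted p = 0.0042). The direction of Dnmt3l depended on the control: against the uninduced monomer the homodimer stood at -0.32 (adjusted p = 0.11), the TCF3 line at -1.02 (adjusted p = 1.8e-05) and the TCF4 line at -1.27 (adjusted p = 1.2e-06).

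**Figure D2:**
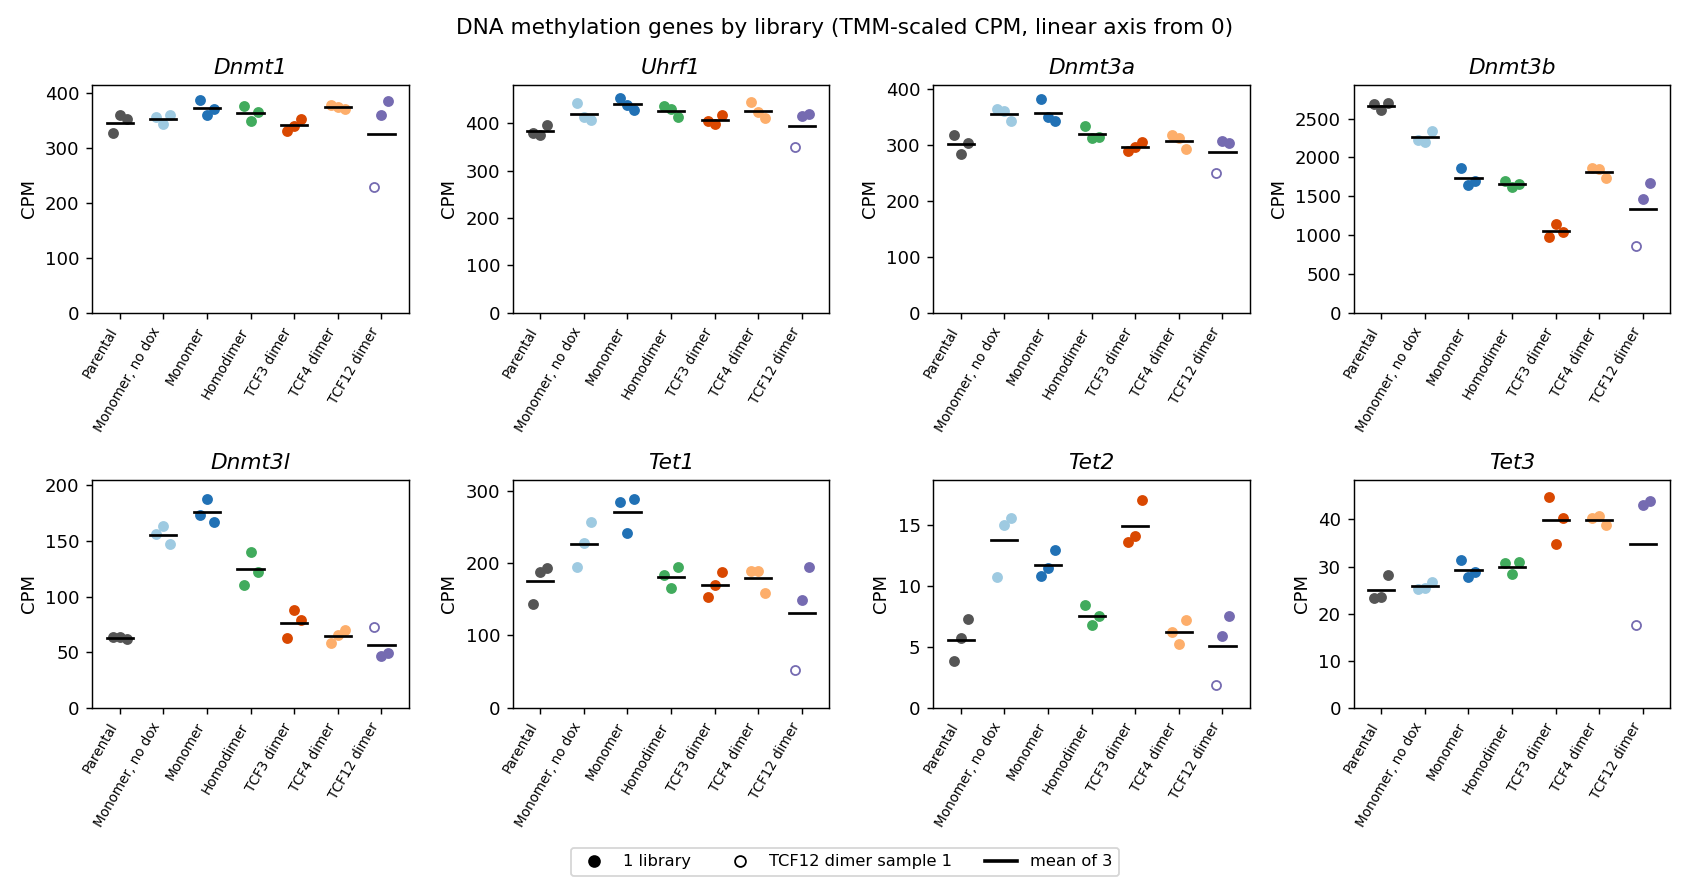
CPM (linear axis from 0) of each gene in each library, with the mean of 3 as a bar and TCF12 dimer sample 1 as an open symbol. Dnmt3b is highest in the parental line (2612 to 2702), Dnmt3l in the monomer line and homodimer (111 to 188), Tet2 in the monomer and TCF3 lines (10.7 to 17.1), and Tet3 in the TCF3, TCF4 and remaining TCF12 libraries (34.8 to 44.7).

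Dnmt3b and Dnmt3l, which act as partners, thus did not follow each other. Over the 21 libraries their Pearson r of log2(CPM + 0.5) was 0.15, and 0.10 over 20, described here without a test since libraries share lines and depth. The per-kilobase ratio of Dnmt3b to Dnmt3l was 24.1 to 25.5 in the parental libraries, 7.88 to 9.35 in the uninduced monomer, 5.13 to 6.28 in the monomer, 6.75 to 8.93 in the homodimer and 7.59 to 9.15 in the TCF3 line. The TCF4 line kept 14.5 to 18.8, and the TCF12 line had 6.95 in sample 1 and 18.3 and 20.1 in the others. The induced monomer had both more Dnmt3l and less Dnmt3b than the parental line, and the TCF3 line less Dnmt3b.

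**Figure D3:**
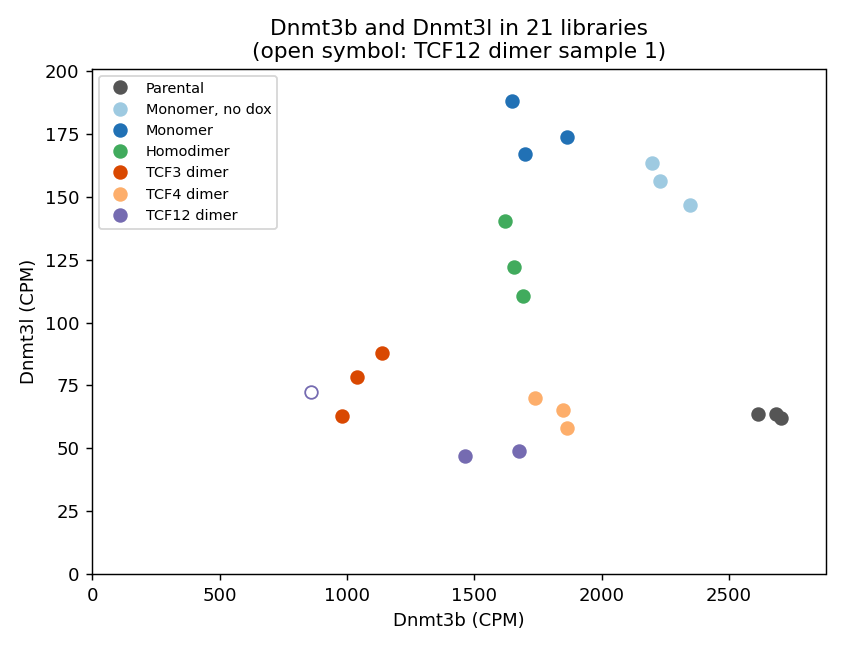
Dnmt3l against Dnmt3b (both CPM, linear axes from 0) in the 21 libraries, coloured by group, with TCF12 dimer sample 1 open. The parental libraries sit at high Dnmt3b and low Dnmt3l (62.0 to 63.8), the monomer line at high Dnmt3l, and the TCF3 line at low values of both.

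Among the erasers, Tet1, the main TET enzyme of embryonic stem cells, was at 144, 188 and 194 CPM in parental libraries, 195, 228 and 257 in the uninduced monomer and 284, 241 and 288 in the monomer. The homodimer had 184, 166 and 195 CPM, and the E-protein lines ranged from 149 to 194 apart from 51.9 in TCF12 dimer sample 1. The monomer line lay above the parental libraries without overlap, and all other groups overlapped them. No Tet1 difference from the parental line passed the edgeR test over 21 libraries; the largest was 0.63 in the monomer (SE 0.27, adjusted p = 0.12). Over 20 libraries Tet1 was called higher in the uninduced monomer (0.37, adjusted p = 0.0055) and the monomer (0.62, adjusted p = 1.6e-05).

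Tet2, low throughout, differed between lines in a pattern of its own. It was at 3.82, 5.75 and 7.27 CPM in parental libraries, 10.7, 15.1 and 15.6 in the uninduced monomer, 10.8, 11.5 and 13.0 in the monomer and 13.6, 14.1 and 17.1 in the TCF3 line. The homodimer had 8.42, 6.82 and 7.51 CPM, the TCF4 line 6.21, 5.22 and 7.18 and the TCF12 line 1.89, 5.91 and 7.51. The monomer line in both states and the TCF3 line lay above the 12 libraries of the other 4 groups. Raw counts behind these values were 35 to 72 in the parental libraries and 160 to 210 in the TCF3 libraries. Against the parental line Tet2 rose by 1.41 in the TCF3 line (SE 0.28, edgeR adjusted p = 0.00086), by 1.31 in the uninduced monomer (SE 0.29, adjusted p = 0.0029) and by 1.06 in the monomer (SE 0.29, adjusted p = 0.014). Against the uninduced monomer in place of the parental line, the TCF3 value was 0.10 (SE 0.26, adjusted p = 0.82). The monomer call was lost without parental sample 1 (0.85, adjusted p = 0.081) and without monomer sample 3 (0.97, adjusted p = 0.059). The homodimer, TCF4 and TCF12 lines gave 0.42, 0.15 and -0.10, with adjusted p of 0.53, 0.86 and 0.82.

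Tet3, the TET enzyme of the oocyte and of later differentiation, was higher in the E-protein lines. It read 23.2, 23.5 and 28.3 CPM in parental libraries, 25.2, 25.4 and 26.7 in the uninduced monomer, 31.4, 27.8 and 28.8 in the monomer and 30.6, 28.5 and 30.9 in the homodimer. The TCF3 line had 44.7, 34.8 and 40.3 CPM, the TCF4 line 40.3, 40.6 and 38.9 and the TCF12 line 17.6, 43.0 and 43.9. All E-protein libraries except TCF12 dimer sample 1 lay above all others. Tet3 rose by 0.68 in the TCF3 line (SE 0.21, edgeR adjusted p = 0.021) and by 0.67 in the TCF4 line (SE 0.21, adjusted p = 0.039). In the TCF12 line it was 0.49 (SE 0.21, adjusted p = 0.09), and 0.79 without sample 1 (SE 0.09, adjusted p = 2.8e-08). The TCF3 call was lost without parental sample 1 (0.62), without parental sample 2 (0.62) and without TCF3 sample 1 (0.60), and the TCF4 call held in 14 of 28 alternative analyses, at sizes of 0.62 to 0.77. The per-kilobase ratio of Tet1 to Tet3 was 6.68 to 8.64 in parental libraries, 9.37 to 10.8 in the monomer and 3.18 to 5.27 over the 3 E-protein lines.

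Counted by comparison with the same parental libraries, which all 6 comparisons share, 3 of 8 members were called in the uninduced monomer (3 higher), where 19.9% of 14311 genes were called. In the monomer 5 of 8 were called (4 higher, 1 lower) against 20.0% of genes, in the homodimer 2 of 8 (1 each way) against 8.84%, and in the TCF3 line 3 of 8 (2 higher, 1 lower) against 28.3%. In the TCF4 line 2 of 8 were called (1 each way) against 12.9%, and in the TCF12 line 1 of 8, Dnmt3b, against 27.0%. Without TCF12 dimer sample 1, of 14423 genes tested, 6 of 8 members were called in the uninduced monomer against 36.8% of genes, 6 in the monomer against 35.2% and 4 in the homodimer against 20.4%. In the E-protein lines the counts were then 4 against 46.5% for TCF3, 3 against 28.1% for TCF4 and 3 against 30.3% for TCF12. No test compared these shares with those of all genes. Between the induced and the uninduced monomer, 0 of 8 members were called by edgeR over 21 libraries, where 2.00% of genes were; DESeq2 also called 0, and 1 of 8, Dnmt3b, had an unadjusted p under 0.05. Dnmt3b was lower in all 3 induced libraries (log2 -0.38, SE 0.15, edgeR adjusted p = 0.33), and over 20 libraries it was the 1 member called (-0.38, adjusted p = 4.6e-06), against 6.17% of genes. Of the other members, Dnmt3l differed by 0.18 with an interval of -0.11 to 0.47 and Tet2 by -0.25 with an interval of -0.81 to 0.32.

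**Figure D4:**
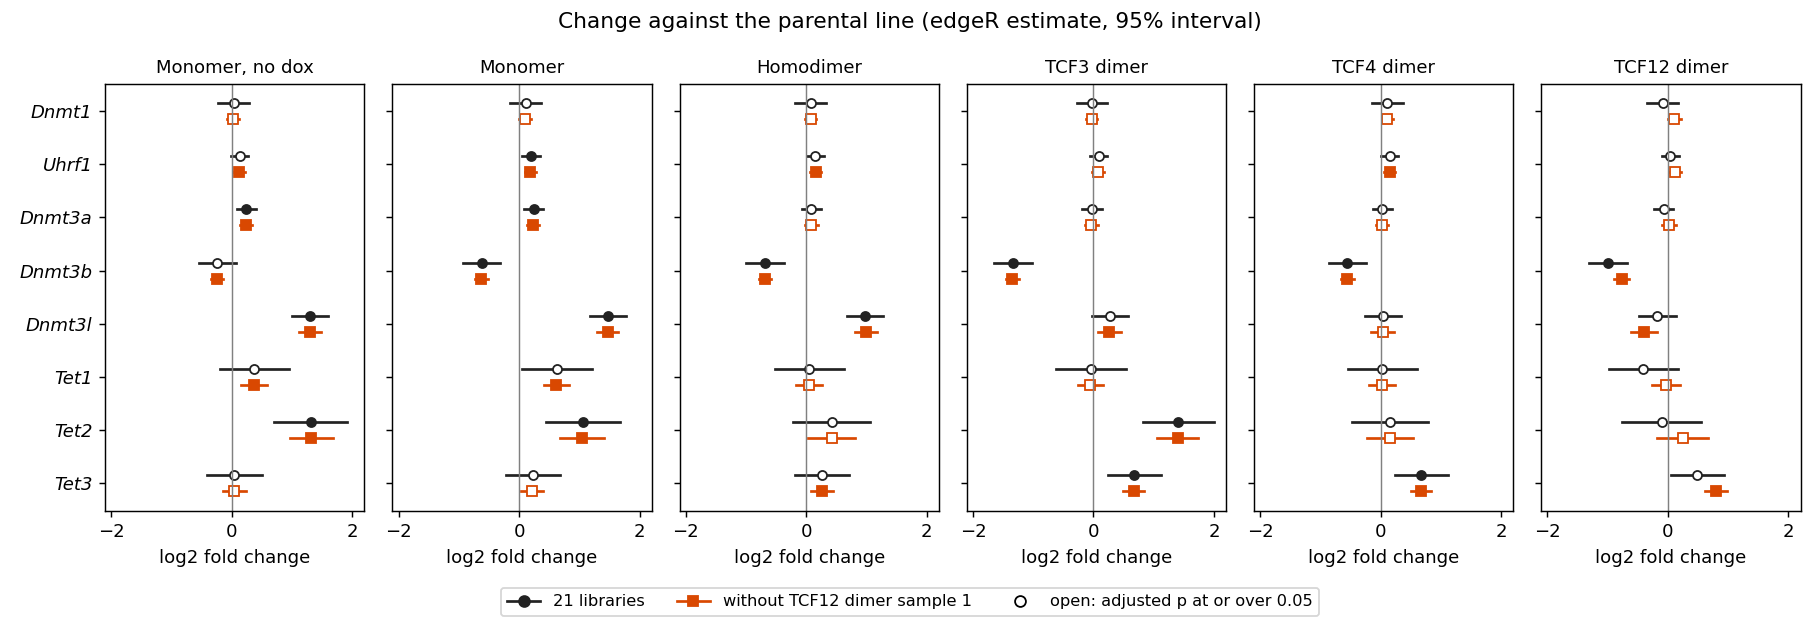
Log2 fold change of each gene against the parental line with its 95% interval, from 21 libraries (black) and from the 20 without TCF12 dimer sample 1 (orange); open symbols did not pass the test. Dnmt3b lies left of 0 in all 6 panels (-1.34 in the TCF3 line), Dnmt3l right of 0 in the monomer line and homodimer (1.30, 1.48 and 0.98), and the orange intervals are shorter.

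Set against the monomer, the dimer lines showed less Dnmt3l. The monomer line was already at 147 to 163 CPM of Dnmt3l when uninduced, and the E-protein lines overlapped the parental one, TCF12 only through its sample 1. The homodimer had 1 of 8 members called against 18.5% of genes, and it was Dnmt3l (-0.50, SE 0.14, edgeR adjusted p = 0.015), a call lost without monomer sample 2, homodimer sample 1 or homodimer sample 3 (-0.44, -0.41 and -0.48). The TCF3 line had 3 of 8 called, all lower, against 22.1% of genes: Dnmt3l (-1.21), Dnmt3b (-0.72) and Dnmt3a (-0.27). The TCF4 line also had 3 of 8 called, all lower, against 27.4%: Dnmt3l (-1.45), Tet2 (-0.91) and Dnmt3a (-0.22). The TCF12 line had 4 of 8 called, all lower, against 33.5%: Dnmt3l (-1.66), Tet2 (-1.17), Tet1 (-1.04) and Dnmt3a (-0.32). Of these calls, Dnmt3l in the 3 E-protein lines and Dnmt3b in TCF3 held in all 28 alternative analyses. Dnmt3a held in 24 of 28 in TCF3, where library size alone (-0.21) and no filter on low counts (-0.26) ended it, in 16 in TCF4 and in 27 in TCF12. Tet2 held in 25 of 28 in TCF4, and was lost without monomer sample 3 (-0.82), TCF4 sample 1 (-0.92) or TCF4 sample 2 (-0.81). In TCF12, Tet2, Tet1 and Dnmt3a each lost the call when only those 2 groups were fitted (adjusted p = 0.13, 0.18 and 0.16). Without TCF12 dimer sample 1 the counts were 4 against 33.3% of genes in the homodimer, 7 against 40.9% in TCF3, 5 against 45.5% in TCF4 and 5 against 42.4% in TCF12. Tet1 was then -0.65 in the TCF12 line (adjusted p = 2.9e-05), and Tet1 was also called lower in the homodimer (-0.57), the TCF3 line (-0.67) and the TCF4 line (-0.60). In those 20 libraries Tet3 was called higher than in the monomer in all 3 E-protein lines, by 0.45, 0.45 and 0.57 in the order TCF3, TCF4, TCF12.

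In direct tests between dimer lines, Dnmt3l, Dnmt3b and Tet2 differed. The 3 E-protein lines together had less Dnmt3l than the homodimer, with means of 65.6 and 124 CPM (log2 -0.94, SE 0.11, edgeR adjusted p = 7.1e-06), the 1 member of 8 called where 14.0% of genes were. Over 20 libraries 3 were called against 28.9%, with Dnmt3b lower (-0.21) and Tet3 higher (0.45) besides. The TCF3 line differed from the TCF4 line in 2 of 8 members against 19.7% of genes. Dnmt3b was lower in it (-0.79, SE 0.15, adjusted p = 0.00085) and Tet2 higher (1.26, SE 0.27, adjusted p = 0.0023), and for both genes the 3 libraries of each line did not overlap; over 20 libraries 4 members were called against 40.4%. Against the TCF12 line, the TCF3 line differed in 2 of 8 members against 18.8% of genes: Tet2 was higher (1.51, SE 0.28, adjusted p = 0.00094; 1.15 in 20 libraries) and so was Dnmt3l (0.45, SE 0.14, adjusted p = 0.035; 0.66 in 20 libraries). That Dnmt3l call held in 23 of 28 alternative analyses. It was lost without TCF3 sample 2 (0.33), TCF3 sample 3 (0.46), TCF12 sample 2 (0.37) or TCF12 sample 3 (0.39). Over 20 libraries 3 members were called against 25.0%, with Dnmt3b lower (-0.58) besides. Between TCF12 and TCF4, 0 of 8 members were called by edgeR over 21 libraries, where 3.24% of genes were; DESeq2 also called 0, and 1 of 8, Dnmt3b, had an unadjusted p under 0.05. Over 20 libraries 2 were called against 4.76%: Dnmt3b (-0.21, adjusted p = 0.03) and Dnmt3l (-0.43, adjusted p = 0.0098), both lower in TCF12. Tet3 differed between the TCF3 and TCF4 lines by 0.00 (SE 0.20), with an interval of -0.42 to 0.42.

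Of 6 maintenance partners, at most 1 was called in any comparison with the parental line over 21 libraries and at most 4 over 20, with medians of -0.19 to 0.02 beside at most 0.02 for all genes. The 4 called over 20 libraries were in the TCF3 line, all lower, where 46.5% of genes were called. The summed level of the 6 was 1612 to 1649 CPM there, below the parental 1846 to 1900. Cdca7, which activates the remodeller HELLS, fell in the TCF3 line (-0.37, adjusted p = 5.9e-05), with 151 ± 4.44 CPM there and 196 ± 4.57 in parental libraries (SD, n = 3). Hells itself was at 0.29 in the homodimer and -0.20 in the TCF3 line, neither past the test (adjusted p = 0.25 and 0.33). Uhrf2, the paralogue of Uhrf1, rose in the TCF4 line (0.47, adjusted p = 0.024), and Usp7, the deubiquitinase that stabilises DNMT1 and UHRF1, was lower in the TCF12 line (-0.39, adjusted p = 0.018). Of 12 modulators and recruiters, 0 to 3 were called higher and 0 to 2 lower in each comparison with the parental line. Of all genes, 8.84% to 28.3% were called in these comparisons. Zfp57, the zinc finger protein that protects imprinted methylation, rose in the uninduced monomer (1.13, adjusted p = 6.3e-09). Dppa3, which keeps UHRF1 off chromatin, had 3.39 ± 0.59 CPM in parental libraries and fell in the monomer (-1.30, adjusted p = 0.011), the TCF3 line (-1.21, adjusted p = 0.008) and the TCF4 line (-1.27, adjusted p = 0.011). Prdm14, which represses the de novo enzymes in naive cells, was low everywhere, with 0.77 ± 0.23 CPM in parental and 1.69 ± 0.30 in uninduced monomer libraries (1.09, adjusted p = 0.066). It was called lower in the TCF12 line, where its 3 libraries were at 0.10, 0.08 and 0 CPM, under the floor of 3 counts.

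Downstream of the TET enzymes, at most 3 of 11 base excision and Gadd45 genes were called higher and at most 2 lower in any comparison with the parental line, with medians of -0.02 to 0.15. For this and the following lists, the share of all genes called against the parental line was 8.84% to 28.3%. Tdg, the glycosylase that excises oxidised cytosine, was lower in the uninduced monomer (-0.24, adjusted p = 0.015) and the TCF3 line (-0.20, adjusted p = 0.032), from a parental level of 165 ± 5.97 CPM. Gadd45g, Gadd45b and Gadd45a, stress proteins linked to demethylation, had their largest changes in the monomer (1.95, adjusted p = 0.00071), the uninduced monomer (1.34, adjusted p = 0.00084) and the TCF3 line (1.08, adjusted p = 1e-04). Mbd2, a reader of methylated CpG, rose in the TCF3 line (0.55, adjusted p = 0.0024). Of 10 genes of methyl donor supply, the TCF3 and TCF12 lines each had 2 higher and 4 lower, where 28.3% and 27.0% of all genes were called. Shmt1 of the folate cycle rose in the TCF3 line (0.78, edgeR adjusted p = 4.1e-07). Mtap, of the methionine salvage pathway, fell in the monomer (-0.53, edgeR adjusted p = 3.1e-06). Of 17 germline genes whose promoters are silenced by methylation, 14 were tested. At most 2 were called higher and 2 lower against the parental line in any group, and their summed level stayed between 76.4 and 96.0 CPM in all 21 libraries. In the TCF3 line, where Dnmt3b was lowest, that sum was 76.4 to 88.7 CPM against 88.4 to 94.9 in the parental line. There Slc25a31 rose (1.48, adjusted p = 0.0013) and 2 of the 14 were called lower. Of 12 S phase genes, whose expression Dnmt1 and Uhrf1 usually follow, 1 to 2 were called higher and 0 to 3 lower, and the summed level was 4794 to 5320 CPM.

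Markers of cell state moved with several members, and their part in these results was not tested; in bulk RNA, fewer cells of a type and less RNA per cell cannot be told apart. All 15 extraembryonic endoderm markers were tested and none was at 0 in any group. Their sum was 1350 to 1373 CPM in parental libraries, 4423 to 5110 in the uninduced monomer, 4330 to 4741 in the monomer and 2876 to 3439 in the TCF3 line, but 924 to 1013 in the homodimer, 940 to 1006 in the TCF4 line and 920 to 1060 in the TCF12 line. Against the parental line 14 of 15 rose in each of the first 3 of these, with 1 lower in the TCF3 line, while 11, 12 and 10 fell in the homodimer, TCF4 and TCF12 lines, with 2 higher in the TCF12 line. Over all genes the share called in the comparisons with the parental line was 8.84% to 28.3%. Tet2 was high in the 3 groups with the high marker sum and in no other. Dnmt3l was high in the monomer line and rose in the homodimer, whose marker sum lay below the parental one. In the TCF3 line, whose sum lay above the parental one, Dnmt3l was called higher over 20 libraries and not over 21. Of 10 naive pluripotency genes, 9 rose and 1 fell in the uninduced monomer and 8 rose and 1 fell in the monomer, with Nr0b1 (1.77), Klf4 (1.73) and Tbx3 (1.64) up in the uninduced monomer and Nanog down in the monomer (-1.90). In the TCF3 line 6 rose and 1 fell, in the homodimer 4 rose and 2 fell, and in the TCF4 and TCF12 lines 7 and 9 fell and none rose. Fgf5, a formative epiblast gene, was lowest where Dnmt3b was, in the TCF3 line (-1.83, adjusted p = 2.1e-10), and of the 8 formative genes 3 fell and none rose there. Primitive streak markers were lower than in the parental line in all 6 other groups (5 of 5 tested called in each), with a sum of 174 to 208 CPM in the parental line against at most 37.5 elsewhere. The mesoderm and mesenchyme markers, 6 of 8 tested, had a sum of 3.79 to 7.20 CPM in the parental, monomer and homodimer libraries and to 16.3 to 46.1 in the E-protein lines, where Tet3 was also higher. The germ cell markers Prdm1, Dazl, Ddx4 and Dppa3 summed to 27.4 to 40.4 CPM over all libraries. The sum of 5 pluripotent or epiblast markers (Pou5f1, Sox2, Nanog, Utf1 and Zfp42) was 1275 to 1344 CPM in parental libraries, 1362 to 1521 in the monomer line with or without doxycycline, 930.0 to 1086 in TCF3 and 1098 to 1137 in TCF4. It was 1505 in TCF12 dimer sample 1 and 1054 and 1015 in its mates. In the TCF3 line 1 of the 5 rose and 2 fell. The sum of 4 neural markers (Pax6, Sox1, Nes and Neurog2) was 136 to 144 CPM in parental libraries and lower elsewhere, at 62.1 to 79.2 in the monomer line, 84.3 to 86.3 in the homodimer, 82.4 to 88.0 in TCF3 and 112 to 135 in the TCF4 and TCF12 lines. The sum of 5 trophectoderm markers was 109 to 172 CPM apart from 201 in TCF12 dimer sample 1.

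**Figure D5:**
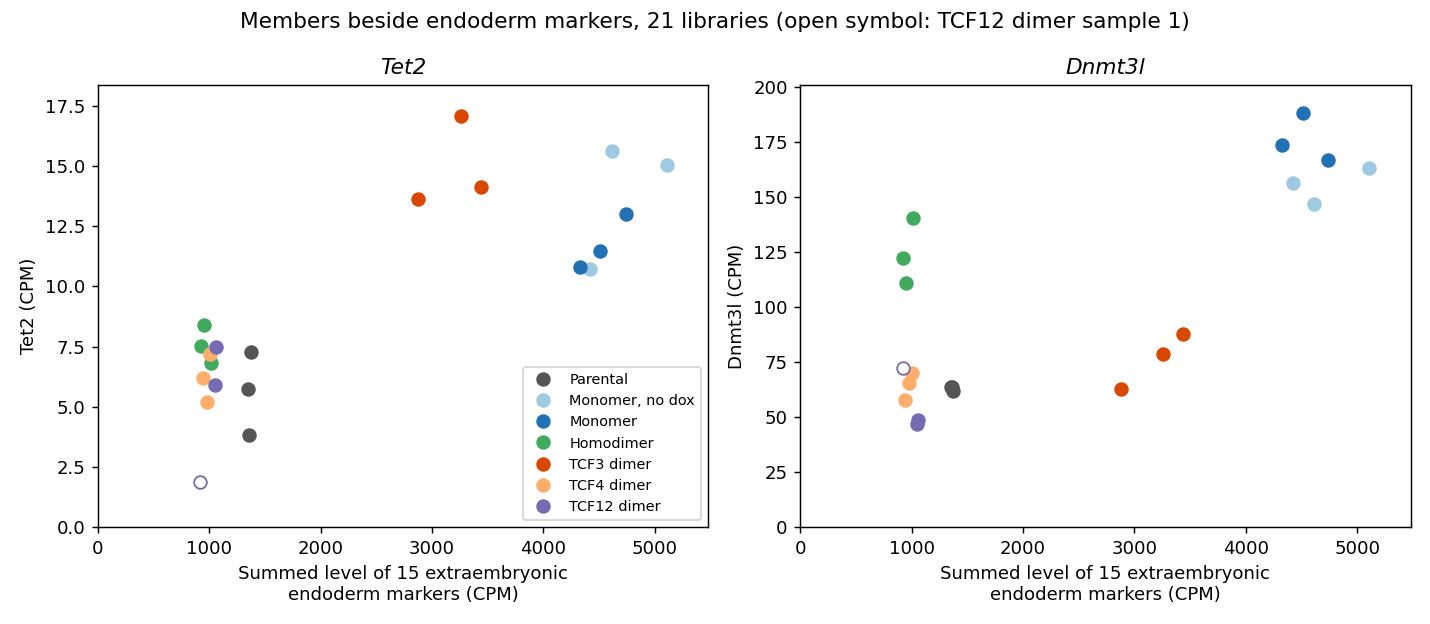
Tet2 (left) and Dnmt3l (right), in CPM, against the summed CPM of 15 extraembryonic endoderm markers in the 21 libraries, linear axes from 0. Tet2 is at 10.7 or more only where the sum is 2876 or more. The homodimer has Dnmt3l of 111 to 140 at a sum of 924 to 1013.

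Likeness of pattern was described by Pearson r of log2(CPM + 0.5) over 21 libraries among 9176 genes averaging 10 CPM or more. For Dnmt3b the closest were Isg20l2 (0.97), 4933404O12Rik (0.96) and Ccnd1 (0.95), a G1 cyclin. For Dnmt3l they were Dact2 (0.94), Ltbp4 (0.94) and Llgl2 (0.93), and these 3 also led over 20 libraries (0.95, 0.96 and 0.94). For Tet2 they were Ero1l (0.94), Fn1 (0.94), the gene of fibronectin, and Mbnl2 (0.93). Tet3 was nearest to Ric1 (0.96), Map1b (0.95) and Ndst1 (0.94). Dnmt3a was nearest to Pml (0.93), E2f8 (0.93) and Pipox (0.90), and Uhrf1 to Arhgef28 (0.88), Pif1 (0.84) and Trim71 (0.83). For Tet1 the closest were Dnajc13, Snrnp200 and Ahctf1 (0.96 to 0.97), which gave 0.88 to 0.93 without TCF12 dimer sample 1. Dnajc13, Mllt4 and Snrnp200 then led. The list for Dnmt1 (Smarcc1, Arhgap11a and Kdm6a, 0.96 to 0.98) leaned more on that library: without it the same genes gave 0.77 to 0.86. So did the Uhrf1 list, whose genes then gave 0.81, 0.73 and 0.71. For Dnmt3a, Dnmt3b, Tet2 and Tet3 the genes named still gave 0.86 to 0.95 over 20 libraries, but their top 3 changed. The top 3 were then E2f8, Utf1 and Zbtb8a for Dnmt3a and Slc7a3, Isg20l2 and Emb for Dnmt3b. For Tet2 they were Ero1l, Fn1 and Fam120a, and for Tet3 Tril, Ric1 and Id1. Within the family, the r of Tet3 with Dnmt3b was -0.27 over 21 libraries and -0.71 over 20, and that of Dnmt3a with Dnmt3l 0.73 and 0.80. All these values share the same lines and libraries and are descriptions.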

How the data were processed

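RNA-seq libraries (TruSeq mRNA) of 21 samples in 7 groups of 3 were used as the deposited count tables, whole-number read counts per gene symbol with no normalization by the authors. TopHat2, HTSeq, FastQC and mm10/GRCm38 are named in the submitters' processing notes; their roles, versions, the annotation and the strand setting are not given in the sources used here. Dates stood in place of 25 gene symbols in 18 of the count files, and rows were joined by position; the 3 TCF12 files keep the symbols, so that difference cannot be told apart from the group.

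Genes were kept by edgeR's filterByExpr (at least 10 counts, total 15), which left 14311 of 48321 symbols. Counts were fitted in one model with 7 group means (R 4.3.3, edgeR 4.0.16, limma 3.58.1, TMM scaling, quasi-likelihood test, two-sided), with Benjamini-Hochberg adjustment over all genes tested and calls at an adjusted p under 0.05, for 15 comparisons; intervals are 95%. A second fit left out TCF12 dimer sample 1. Levels are CPM computed from the counts; a floor of 3 counts per library covers counting error only. Exon lengths and positions are from GENCODE M21, and promoters from RefSeq. The script was tested on simulated data. Alternatives were RLE factors, library size only, other filters, DESeq2 1.42.0, only the groups compared, the uninduced monomer as control, a replicate block and leaving out each sample. No columns were left unused.

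The members and gene lists were chosen with earlier results of these data known. All 8 members were named in every comparison. Up to 4 genes per companion list were named, those with the largest change among genes called against the parental line or between the monomer states, and also Dppa3, Prdm14, Tdg, Hells, Cdca7 and Uhrf2. The 3 most similar genes per member were named by Pearson r. The result of 1 companion list is not reported here.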

Additional observations from a re-analysis of the deposited data

Results flagged for a closer look

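Tests made directly between dimer lines called 5 member results. For the E-protein lines against the homodimer 1 of 8 was called, where 14.0% of all genes were. For TCF3 against TCF4 it was 2 of 8 against 19.7%, and for TCF3 against TCF12 2 of 8 against 18.8%. For TCF12 against TCF4 it was 0 of 8 against 3.24%. No test compared these shares. Dnmt3l was lower in the 3 E-protein lines together than in the homodimer, by a log2 difference of -0.94 (adjusted p = 7.1e-06 in edgeR's quasi-likelihood test), with all 9 E-protein libraries below all 3 homodimer libraries. Dnmt3b was lower in the TCF3 line than in the TCF4 line, at -0.79, and Tet2 was higher, at 1.26, and each was separated in all 3 libraries of each line. Against the TCF12 line, Tet2 was higher in the TCF3 line by 1.51, with all 3 libraries above, and Dnmt3l by 0.45. Both lost their call when only those 2 groups were fitted (Tet2 1.53, adjusted p = 0.15; Dnmt3l 0.44, adjusted p = 0.42), and for Dnmt3l TCF12 dimer sample 1 overlapped the TCF3 line.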

How the results depend on the processing

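Of 120 member results, 32 passed the threshold. Across the same 15 comparisons over 21 libraries, 2.00% to 33.5% of all genes were called. No test compared the member results with these shares. Of the 32, 18 lost the threshold under at least 1 alternative, while 1 called result reversed, Dnmt3l in the homodimer. Called in all 28 alternative analyses were the falls of Dnmt3b in the monomer, homodimer and TCF3 line, the rises of Dnmt3l in the monomer line and homodimer, the rises of Tet2 in the uninduced monomer and TCF3 line, Dnmt3l in the E-protein lines against the homodimer and in each of them against the monomer, Dnmt3b in TCF3 against the monomer, and Dnmt3b and Tet2 in TCF3 against TCF4. The 28 do not include another control. For the counts that follow, the share of all genes called under the same alternative is not given. A change in them cannot be told apart from a change over all genes. Fitting only the groups compared, members called against the parental line were 5 in the uninduced monomer, 4 in the homodimer and 0 in the TCF12 line; induced against uninduced monomer 1; against the monomer 4 in the homodimer, 6 in TCF3, 5 in TCF4 and 1 in TCF12; and 4 for TCF3 against TCF4 and 0 for TCF3 against TCF12. With library size only, 3 were called in the monomer and 0 in TCF4. With no filter on low counts, 2 were called in TCF12 against the parental line, 2 in the homodimer against the monomer and 1 in TCF12 against TCF4. With the uninduced monomer as control, 4 were called in TCF4 and 5 in TCF12, and 6 values turned: Dnmt3l to -0.32 and Tet2 to -0.89 in the homodimer, Dnmt3l to -1.02 in TCF3, and Dnmt3a to -0.21, Dnmt3l to -1.27 and Tet2 to -1.16 in TCF4. The cause was not tested.

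Leaving out each sample in turn, counts against the parental line ran from 2 to 6 in the uninduced monomer, 3 to 6 in the monomer, 2 to 4 in the homodimer, 2 to 4 in TCF3, 0 to 3 in TCF4 and 1 to 3 in TCF12. They ran from 0 to 1 for induced against uninduced monomer, 0 to 4, 2 to 7, 1 to 5 and 4 to 7 for the homodimer, TCF3, TCF4 and TCF12 against the monomer, 1 to 3 for the E-protein lines against the homodimer, 2 to 4 for TCF3 against TCF4, 0 to 3 for TCF12 against TCF4 and 1 to 3 for TCF3 against TCF12. The upper ends came from leaving out TCF12 dimer sample 1, except for the TCF12 line against the monomer (5 without it) and against TCF4 (2 without it). Leaving it out also raised the share of all genes called, in the uninduced monomer against the parental line from 19.9% to 36.8%. For the other samples left out that share is not given.

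Samples share only a number across groups: same-numbered samples had a mean correlation of deviations of 0.02 (63 pairs, 8 over 0.1). The replicate block took Uhrf1 in the monomer to 0.20 (adjusted p = 0.063) and the count there to 4, and changed no other member call. At 35 to 72 counts in the parental libraries, Tet2 is the member that depth limits most.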
